A study of Mus musculus with 19 samples.

Results

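The question here was whether luminal cells (LCs) of the mammary gland answer progesterone differently when estrogen receptor α (ERα) lacks its palmitoylation site. All 19 mice of the series entered the comparison, 1 array per mouse, and 20661 genes were tested. The interaction is the response to progesterone in C451A-ERα mice, E2+Pg minus E2, less the same response in wild-type (WT) mice. A positive value therefore means a larger rise or a smaller fall in C451A-ERα, and a negative value the opposite.

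RNA came from sorted CD24+CD29lo LCs of ovariectomized C57Bl/6N females that had carried a hormone pellet for 21 days and were 8 weeks old at the end. The 4 groups were WT with estradiol (WT E2, n = 4), WT with estradiol and progesterone (WT E2+Pg, n = 5), C451A-ERα with estradiol (C451A E2, n = 5) and C451A-ERα with both hormones (C451A E2+Pg, n = 5). Every pellet held 0.01 mg E2, and those of the E2+Pg groups also 1.5 mg Pg, for release over 60 days, so no group went without estradiol. C451A-ERα is a germline knock-in, present in every cell of the mouse and not in LCs alone, and a point mutation of this kind cannot be checked on these arrays.

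As background, ERα works as a nuclear transcription factor and, when palmitoylated, also at the plasma membrane, and the knock-in takes away the membrane form. In the mammary gland estradiol induces the progesterone receptor in a subset of luminal cells, the hormone-sensing cells. Progesterone then acts on these cells, which pass the signal to their neighbours through secreted factors such as RANKL (Tnfsf11) and Wnt4. Amphiregulin (Areg), another paracrine factor, is induced by estradiol.

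The luminal keratins Krt8 and Krt18 were bright on all arrays, with medians of 17.6 and 18.1 on the log2 signal scale used for all levels here. Other cell types also left a signal: the basal keratin Krt14 lay between 10.9 and 13.8, the smooth muscle actin gene Acta2 between 13.1 and 14.3, and the leukocyte gene Ptprc between 8.13 and 10.6. In bulk samples of this kind, fewer cells of a type and less RNA per cell cannot be told apart. The arrays lay on 5 slides, 4 of which held all groups, and interactions within those 4 slides are given beside the pooled ones.

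A few mice stood apart from their groups. Across all genes, the levels of mouse L18 (C451A E2+Pg), each centred on the gene's mean, correlated at -0.34 with the rest of its own group and at 0.50 with WT E2+Pg. Mouse L72 (WT E2) correlated at -0.13 with its own group and at 0.55 with C451A E2, and mouse L4 (C451A E2) at -0.14 and 0.04. The other 16 mice lay closer to their own group. In Fgb, which encodes fibrinogen beta, mouse L72 was at 15.69 where the other WT E2 mice were at 11.20 to 12.26. Mouse L21 (WT E2+Pg) was at 14.44 where its group was at 8.38 to 10.76, and mouse L18 at 10.53 where its group was at 14.87 to 16.23. For Greb1, an estrogen target, the same 3 mice again lay away from their groups, on the side of the other genotype. Mouse L72, at 9.52, lay within the C451A E2 range of 5.38 to 10.89. Mice L21, at 9.05, and L18, at 9.66, lay between the rest of WT E2+Pg (11.02 to 11.89) and of C451A E2+Pg (6.01 to 8.05). Since the genotype cannot be checked on the arrays, whether these mice carry the genotype on their labels cannot be told here, and every interaction rests on the labels. Values without these mice stand beside the results they move most. Leaving them out because of where their levels lie favours a difference between the genotypes, so those values describe and support nothing.

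No gene passed the test of the interaction (limma with Benjamini-Hochberg adjustment, at 0.05 and a fold above 1.5, which called 0.0% of genes). The lowest adjusted p was 0.472. At an unadjusted p under 0.05, 1938 genes (9.38%) had an interaction, 792 (3.83%) higher and 1146 (5.55%) lower in C451A-ERα. The median standard error of an interaction was 0.27, and the median 95% interval, not adjusted for the number of genes, reached 0.57 to either side. For a typical gene a call over 20661 genes needed a larger difference than that. Differences somewhat above 0.57 could thus also go undetected with these arrays. Without mouse L72, 24 genes passed, 22 of them higher. Without L18 and L72 together, 21 passed, 19 of them higher.

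The genes described next are those with the lowest p of the interaction at a fold above 1.5. The interaction itself chose them, none passed the test, and their intervals are not adjusted for the choice among 20661 genes. Of the 23 with a gene symbol, 11 had a positive and 12 a negative interaction, and in all 23 the 4 slides with all groups gave the same sign. The slide values come from the arrays that chose the genes, so this agreement is no separate support. Taken by the response to progesterone, 7 of the 23 were called in WT, 10 in C451A-ERα and 6 in neither. Over all 20661 genes these counts were 274, 509 and 19976, and choice by the interaction favours genes called in a single genotype.

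**Figure D1:**
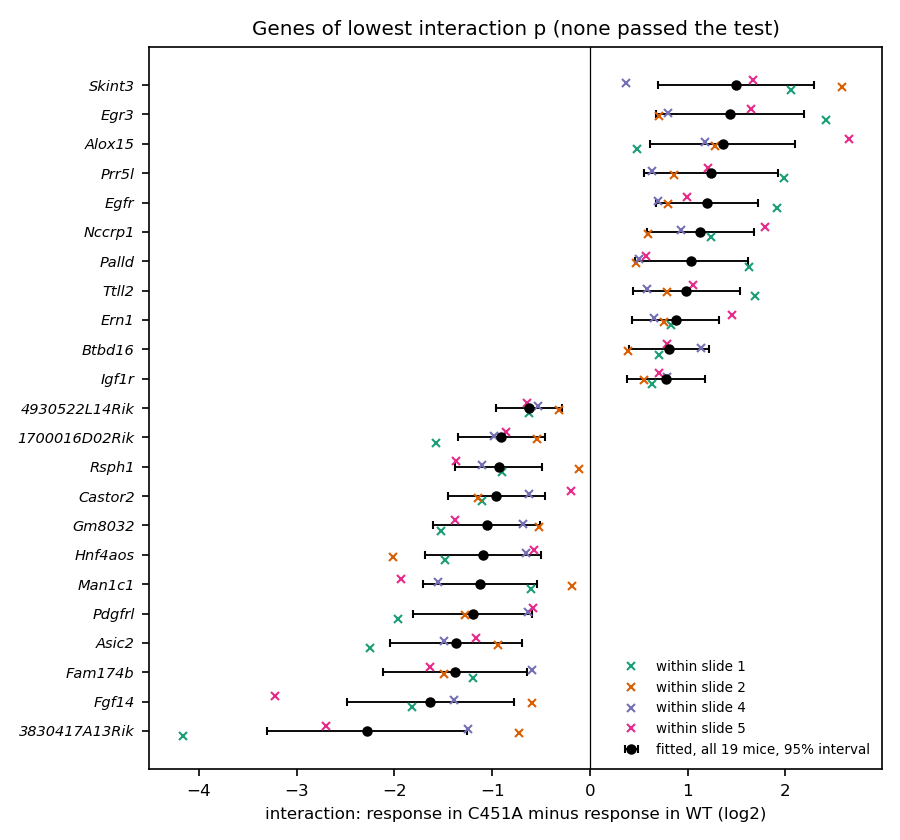
Interaction of genotype and progesterone (log2, with 95% interval) of the 23 genes with the lowest p, with crosses for the values within each of the 4 slides that held all groups. Every cross lies on the same side of 0 as its gene's fitted value, such as 1.20 for Egfr, 0.78 for Igf1r and -1.37 for Asic2. The crosses come from the arrays that chose the genes.

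Egfr, the receptor for amphiregulin and other EGF-family ligands, rose with progesterone in C451A-ERα and not detectably in WT. Its levels were 9.58, 9.65, 9.78, 9.88 and 10.01 in the C451A E2 mice and 10.67, 10.77, 10.96, 10.99 and 11.05 in the C451A E2+Pg mice. In WT they were 9.97, 10.32, 10.84 and 11.05 with E2 and 10.16, 10.43, 10.47, 10.50 and 10.69 with E2+Pg. The groups separated completely in C451A-ERα and overlapped in WT. The response was 2.16-fold in C451A-ERα (log2 1.11, adjusted p = 0.0023, limma) and -0.09 in WT (adjusted p = 0.83, limma). The interaction was 1.20 ± 0.25 (SE), with an interval from 0.68 to 1.72 and values from 0.70 to 1.92 within slides. Without mice L18 and L72 it was 1.45 (adjusted p = 0.016, limma). The probe lies at chr11:16813815-16813874 of the mm9 build.

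Igf1r, the receptor for insulin-like growth factor 1, showed the same arrangement. The C451A E2 mice were at 8.10, 8.15, 8.20, 8.28 and 8.38, and the C451A E2+Pg mice at 8.93, 9.10, 9.14, 9.17 and 9.37. The WT mice were at 8.57, 8.58, 8.65 and 8.95 with E2 and at 8.44, 8.72, 8.84, 8.96 and 9.18 with E2+Pg. The rise in C451A-ERα was 1.89-fold (adjusted p = 0.0015, limma), the WT difference was 0.14, and the interaction was 0.78 (interval 0.38 to 1.18, within slides 0.55 to 0.79). For both receptor genes the C451A E2 mice were the lowest group by mean, by 0.77 in Egfr and 0.47 in Igf1r against WT E2, with adjusted p = 0.12 and 0.14 (limma).

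Further responses passed as rises in C451A-ERα and not in WT. Thbs1, which was not among the 23 genes and was named from the list of matrix genes, encodes the glycoprotein thrombospondin 1. It rose 3.44-fold in C451A-ERα (adjusted p = 0.0031, limma) beside a WT difference of 0.38, with an interaction of 1.40 (0.53 to 2.28). Prr5l, whose product binds the mTORC2 complex, rose 2.28-fold and Palld, which encodes the actin-binding protein palladin, 1.75-fold. The interactions of Prr5l and Palld, both among the 23 genes, were 1.24 and 1.04. The immediate early factor Egr3 had an interaction of 1.44 from a difference of 0.91 in C451A-ERα (adjusted p = 0.054, limma) and of -0.52 in WT, neither of which passed.

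Other responses passed as falls in C451A-ERα. Man1c1, a Golgi mannosidase, fell 2.07-fold there, from a mean of 8.79 to one of 7.74, and its WT difference was 0.08. Fam174b fell 2.73-fold and Castor2, which is related to the arginine sensor of mTORC1, 1.65-fold. The interactions of the 3 genes were -1.13, -1.38 and -0.96, all below 0 within each of the 4 slides. In each, the E2 and E2+Pg mice did not overlap in C451A-ERα and did in WT.

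The opposite arrangement, a response called in WT and not in C451A-ERα, was clearest in Asic2, a proton-gated sodium channel. The WT E2 mice were at 5.19, 5.59, 5.71 and 5.77 and the WT E2+Pg mice at 7.02, 7.16, 7.50, 7.55 and 8.16. The C451A-ERα mice were at 4.87, 4.87, 4.93, 5.05 and 5.58 with E2 and at 5.18, 5.35, 5.51, 5.84 and 6.16 with E2+Pg. All WT E2+Pg mice thus lay above every mouse of the other groups, of which 3 of 4 WT E2, 1 of 5 C451A E2 and 3 of 5 C451A E2+Pg arrays were well above background. The WT rise was 3.77-fold (adjusted p = 0.0024, limma), the C451A-ERα difference was 0.55 (adjusted p = 0.19, limma), and the interaction was -1.37 (-2.04 to -0.69, within slides -2.25 to -0.94). Under E2+Pg, Asic2 was 3.66-fold lower in C451A-ERα than in WT (adjusted p = 0.0022, limma).

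Ern1, the endoplasmic reticulum stress sensor IRE1α, fell in WT from 10.31, 10.61, 10.62 and 10.86 to 9.46, 9.62, 9.66, 9.80 and 9.88. In C451A-ERα it was at 9.53, 9.96, 10.05, 10.07 and 10.07 with E2 and at 9.47, 9.82, 10.03, 10.05 and 10.11 with E2+Pg. The WT fall was 1.89-fold (adjusted p = 0.0088, limma), the C451A-ERα difference was -0.04, and the interaction was 0.88 (0.43 to 1.33). Of the other 22 genes measured from the fixed list of the unfolded protein response, none was called in either genotype. Calls were rare over all genes, 274 of 20661 in WT and 509 in C451A-ERα, so 0 of 22 says little. Of the 23 members with Ern1, 2 had a higher and 2 a lower interaction at an unadjusted p (3.83% and 5.55% of all genes).

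Nccrp1, an F-box-like protein gene of stratified epithelia, fell 2.02-fold in WT, and all WT E2 mice, at 6.51 to 7.68, lay above all other mice. It had an interaction of 1.13 (0.58 to 1.68). In C451A-ERα it was already low with E2, 2.25-fold below WT E2 (adjusted p = 0.047, limma, and 0.083 with the slide as a block), at 5.76 to 6.12 beside 5.74 to 6.29 with E2+Pg. Btbd16 fell 1.58-fold in WT, and its interaction was 0.81. Skint3, of the Skint family of keratinocyte surface proteins, was at least 2.39-fold lower with progesterone in WT, where no WT E2+Pg array was well above background. Fgf14, which binds sodium channels inside the cell, was at least 2.08-fold higher, with no WT E2 array well above background. The X-linked transcript 3830417A13Rik rose 3.17-fold in WT, and its interaction was -2.28 (-3.31 to -1.26).

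In Rsph1, a radial spoke gene of motile cilia, and Pdgfrl, a gene related to the PDGF receptors, the differences had opposite signs, 0.43 and 0.79 in WT and -0.50 and -0.41 in C451A-ERα. None of these 4 responses was called. Their interactions were -0.93 and -1.20.

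**Figure D2:**
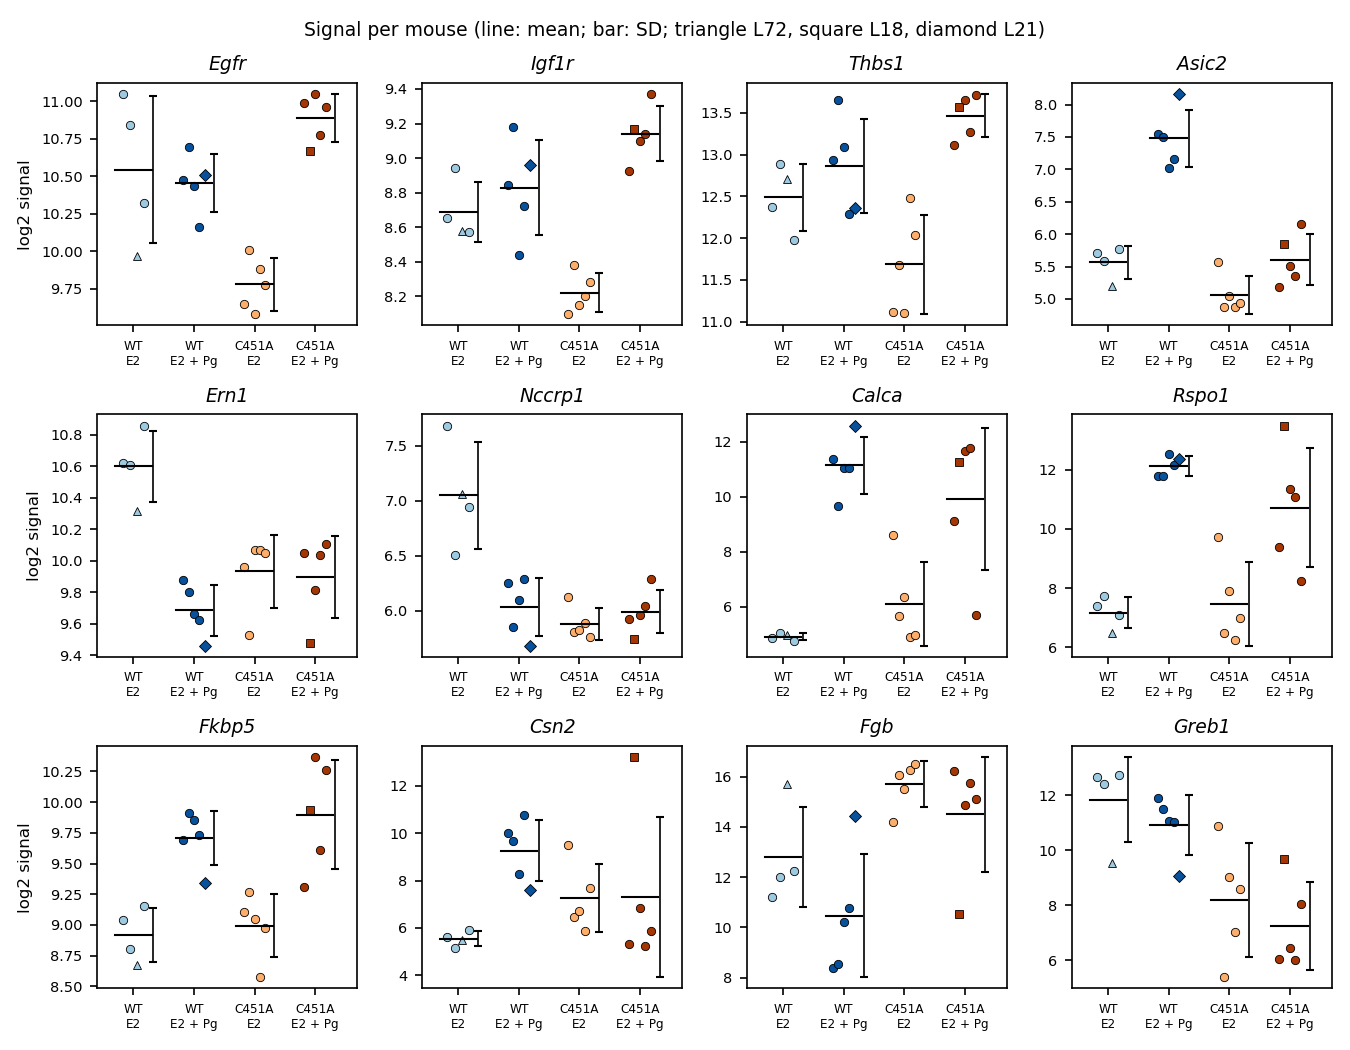
Log2 signal of 12 genes in every mouse, by group, with the mean and SD and with mice L72, L18 and L21 drawn as a triangle, a square and a diamond. In Egfr and Igf1r the C451A-ERα groups separate and the WT groups overlap, in Asic2 the WT E2+Pg mice lie above all others, and in Fgb and Greb1 the 3 marked mice lie away from their groups.

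Set side by side over all genes, the responses were called for 274 genes in WT and 509 in C451A-ERα. In WT, 122 genes rose (0.59%) and 152 fell (0.736%), and in C451A-ERα 212 rose (1.03%) and 297 fell (1.44%). Both genotypes called 98 genes, 35.8% of the WT calls and 19.3% of the C451A-ERα calls, of which 48 rose in both, 50 fell in both and none turned (0 of 98). The responses share no mice. Their correlation over all genes was 0.25 (Pearson; Spearman 0.088), and 51.2% of genes had the same sign. Genes are not independent replicates, and the value moved with single mice: it was 0.054 without L18 and L72 and ranged from 0.072 to 0.42 when mice were left out in turn.

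**Figure D3:**
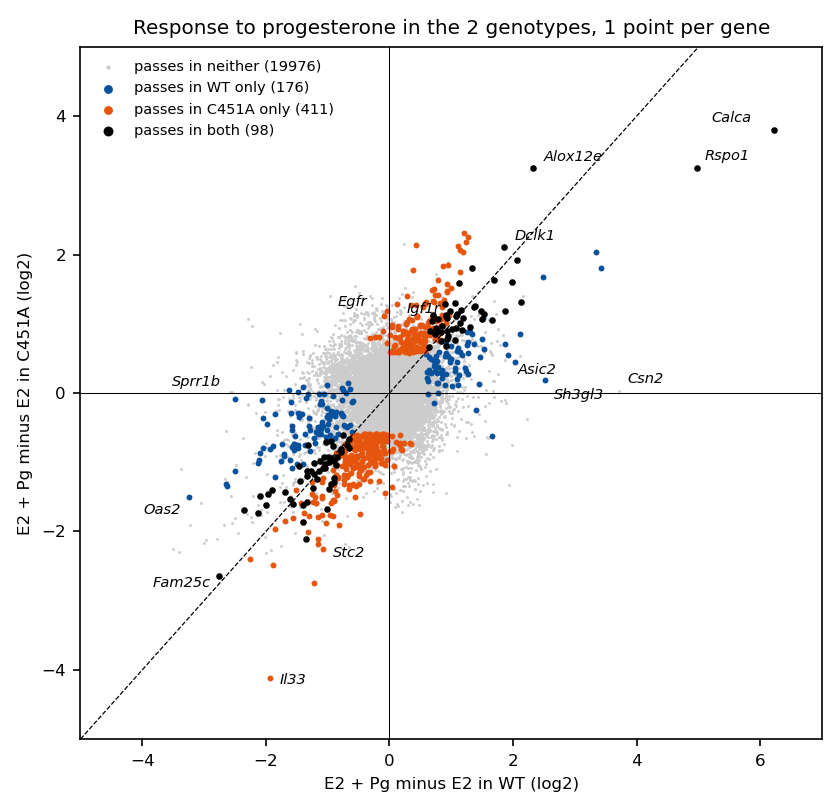
Response to progesterone (log2, E2+Pg minus E2) in WT on the horizontal axis and in C451A-ERα on the vertical axis, 1 point per gene, coloured by the genotype in which it was called. The 98 genes called in both lie in the quadrants of equal sign, and Calca and Rspo1 lie farthest out among the rises.

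Genes called in one genotype usually kept their direction in the other at a smaller size, whichever genotype did the choosing. Of the 274 WT calls, 260 had the same sign in C451A-ERα and 214 of these were smaller there, with median sizes of 1.11 in WT and 0.69 in C451A-ERα. Of the 509 C451A-ERα calls, 486 had the same sign in WT and 430 were smaller there, with medians of 0.93 and 0.54. A gene picked for a large value in some arrays tends to be smaller in others, and the loss was much the same both ways, to 61.9% and 58.5%. Of the 1938 genes with an unadjusted interaction, 1626 had responses of opposite sign, where 51.2% of all genes had the same sign. Choosing genes for a large difference between the responses favours opposite signs, so this count does not show that responses turn. Called in neither genotype were 1742 of the 1938, beside 19976 of all 20661 genes.

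The largest rise in WT was that of Calca, which encodes calcitonin and CGRP. The WT mice were at 4.75, 4.88, 4.99 and 5.05 with E2, on no array well above background, and at 9.67, 11.03, 11.05, 11.38 and 12.59 with E2+Pg. In C451A-ERα they were at 4.90, 4.98, 5.68, 6.36 and 8.61 with E2 and at 5.72, 9.11, 11.26, 11.65 and 11.78 with E2+Pg. The groups were well apart in WT and overlapped in C451A-ERα. The rise was at least 68.6-fold in WT (adjusted p = 0.0063, limma) and 13.9-fold in C451A-ERα (adjusted p = 0.037, limma), and the interaction, -2.43, had an interval from -5.33 to 0.47.

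Rspo1, the Wnt-pathway agonist that luminal cells secrete under progesterone, rose 31.4-fold in WT, from 6.47, 7.10, 7.38 and 7.72 to 11.80, 11.80, 12.18, 12.37 and 12.55. In C451A-ERα it rose 9.51-fold, from 6.23, 6.49, 6.97, 7.91 and 9.73 to 8.23, 9.39, 11.09, 11.35 and 13.50. The E2+Pg mice were more spread out in C451A-ERα than in WT, and the interaction was -1.72 (-4.04 to 0.60). Sh3gl3, an endophilin gene, rose 5.75-fold in WT and was 0.19 higher in C451A-ERα, with an interaction of -2.34 (-3.64 to -1.03) and values below 0 in all 4 slides. Of the WT E2 arrays 3 of 4 were well above background for it, and of those of C451A-ERα 2 of 5 with E2 and 3 of 5 with E2+Pg. Cdh2, which encodes N-cadherin, rose 4.09-fold in WT against a difference of 0.44 in C451A-ERα. There mouse L18, at 8.05, lay with the WT E2+Pg mice and the others of its group at 5.38 to 5.98, and 2 of the 4 slides gave each sign.

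Alox12e, an epidermal-type lipoxygenase, and Dclk1, a doublecortin-like kinase, rose in both genotypes with no overlap between E2 and E2+Pg mice in either. Alox12e rose 5.03-fold in WT and 9.55-fold in C451A-ERα, and Dclk1 3.62-fold and 4.33-fold. Their interactions were 0.93 (-0.49 to 2.34) and 0.26 (-0.59 to 1.11).

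Among the falls, Il33, an alarmin of the interleukin-1 family, went in C451A-ERα from 11.91, 12.53, 12.65, 13.84 and 14.08 to 7.97, 8.12, 8.37, 8.95 and 11.03, a 17.3-fold fall (adjusted p = 0.0015, limma). In WT it was at 12.34, 13.20, 13.40 and 13.42 with E2 and at 9.47, 11.07, 11.56, 11.68 and 11.97 with E2+Pg, a difference of -1.94 that did not pass (adjusted p = 0.11, limma). The mice did not overlap in either genotype. The interaction was -2.17 (-3.92 to -0.43), but slides gave values from -4.18 to 1.25. Stc2, a secreted glycoprotein induced by estrogen, fell 4.76-fold in C451A-ERα beside a WT difference of -1.08 (adjusted p = 0.070, limma), and its interaction, -1.17 (-2.01 to -0.33), was below 0 in all 4 slides.

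Other falls were called in both genotypes. Fam25c fell 6.78-fold in WT and 6.27-fold in C451A-ERα, with an interaction of 0.11 whose interval ran from -1.71 to 1.93. Inpp4b, a phosphoinositide phosphatase, fell 5.12-fold and 3.22-fold (interaction 0.67, -0.45 to 1.79). Of the 98 genes called in both genotypes, 3 had an unadjusted interaction, beside 9.38% of all genes. Choice by a call in both genotypes favours similar responses, so this count does not show that shared responses agree. The 3 genes were Hk2 (hexokinase 2) at 0.57, the cell cycle inhibitor gene Cdkn2a at -0.66 and Bex4 at -0.81. Hk2 and Bex4 were singled out after their values were seen.

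A fixed panel of 19 hormone-related genes was read whatever its values. Of the receptors, the progesterone receptor Pgr fell 1.99-fold in C451A-ERα (adjusted p = 0.036, limma, and 0.068 with the slide as a block), and its difference in WT was -0.72 (adjusted p = 0.17, limma). The interaction was -0.27 with an interval from -1.02 to 0.48. Esr1, which encodes ERα, differed by -0.97 in WT and -1.01 in C451A-ERα, and Prlr, the prolactin receptor, by -0.41 and -1.05, none of them called.

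Of the paracrine mediators on the panel, Tnfsf11 was at 4.64, 4.68, 4.79 and 5.25 in WT E2, on no array above background, and at 5.13, 6.21, 7.04, 7.08 and 7.70 in WT E2+Pg, at least 3.05-fold higher (adjusted p = 0.098, limma). In C451A-ERα it was at 4.50, 4.53, 4.64, 4.92 and 5.58 with E2 and at 4.53, 4.69, 5.01, 5.81 and 7.57 with E2+Pg. The E2 and E2+Pg mice overlapped in both genotypes, and the interaction was -1.11 (-2.65 to 0.44). Areg differed by -1.27 in WT and -1.31 in C451A-ERα, with an interaction of -0.04 (-1.16 to 1.07), and Wnt4 by 0.10 and -0.59. In the fixed list of 18 paracrine mediators, Calca and Rspo1 were the 2 called, as rises in both genotypes. Over all genes 0.59% rose in WT and 1.03% in C451A-ERα. With the slide as a block neither Calca nor Rspo1 passed in C451A-ERα (adjusted p = 0.067 and 0.051, limma). An unadjusted interaction was found in 0 of 18, beside 9.38% of all genes, and 18 genes are too few to tell these shares apart.

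Fkbp5, a chaperone gene that the progesterone and glucocorticoid receptors induce directly, had a response of similar size in both genotypes. It was at 8.68, 8.81, 9.04 and 9.16 in WT E2 and at 9.34, 9.69, 9.73, 9.85 and 9.91 in WT E2+Pg. In C451A-ERα it was at 8.57, 8.98, 9.05, 9.11 and 9.27, and at 9.31, 9.61, 9.94, 10.27 and 10.37. No E2 mouse reached the E2+Pg mice of its genotype. The difference was 0.79 in WT (adjusted p = 0.057, limma) and 0.90 in C451A-ERα (adjusted p = 0.015, limma), and the interaction was 0.12 (-0.46 to 0.70). Other targets of both receptors on the panel, Zbtb16, Sgk1 and Tsc22d3, had interactions of 0.09, 0.29 and -0.97, each with an interval that held 0.

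Csn2, the beta-casein gene, had the panel's largest interaction in size, -3.69 (-7.25 to -0.13). The WT mice were at 5.17, 5.49, 5.64 and 5.91 with E2 and at 7.59, 8.28, 9.69, 10.03 and 10.75 with E2+Pg. The C451A E2+Pg mice were at 5.22, 5.33, 5.85, 6.84 and 13.22, the last of them mouse L18, beside 5.89, 6.48, 6.73, 7.69 and 9.52 with E2. Neither response was called (adjusted p = 0.14 and 0.99, limma), and slides ran from -8.58 to 2.22. Without mice L4, L18 and L21, the lowest 3 by the correlation of uncentred levels with the rest of their group (0.967 to 0.978), the interaction was -5.02 (adjusted p = 0.023, limma).

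For the rest of the panel the intervals were wide. Greb1 had responses of -0.93 and -0.94 and an interaction of -0.01 ± 1.37 (SE), and Fgb an interaction of 1.11 ± 1.69 (SE). Without mice L18, L21 and L72 they were -0.30 ± 1.20 (SE) and 2.13 ± 0.81 (SE). The proliferation marker Mki67 differed by 0.46 in WT and by -1.31 in C451A-ERα, with an interaction of -1.77 (-3.93 to 0.39) and slides of both signs. The alveolar factor Elf5, the cyclin gene Ccnd1, Id4 and Adamts18 had interactions of -0.74, -0.46, 0.20 and -0.44, all with an interval that held 0.

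Fixed lists of genes were then read by their counts and medians, beside the medians of all genes tested, 0.04 in WT, 0.00 in C451A-ERα and -0.05 for the interaction. Genes of a list share regulators and mice, and no test was made of any list. Some lists share members, such as Dusp1 among the immediate early and the receptor target genes.

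**Figure D4:**
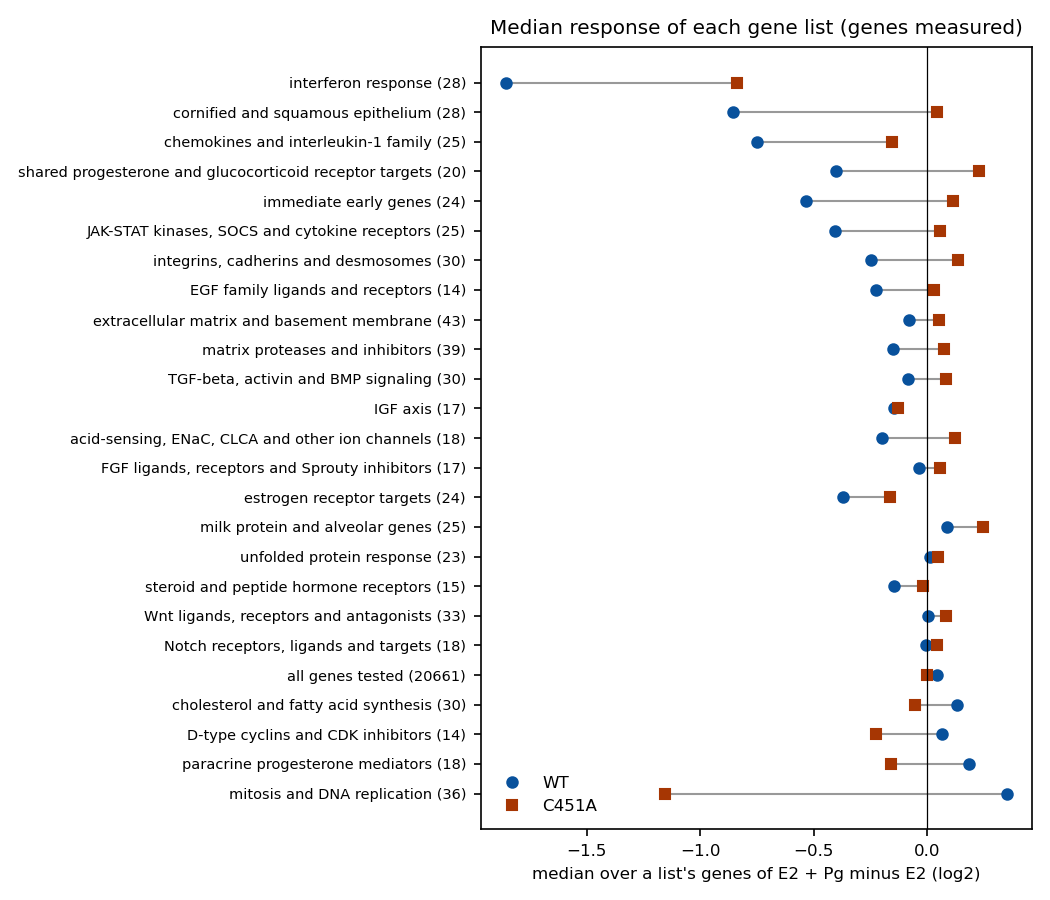
Median over each gene list of the response to progesterone (log2) in WT (circles) and in C451A-ERα (squares), with all genes tested for reference and the number of genes in parentheses. The interferon list lies lowest in WT, at -1.86, with -0.84 in C451A-ERα, and the mitosis list lies lowest in C451A-ERα, at -1.16, with 0.35 in WT.

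The interferon response genes, which encode antiviral and signalling proteins, had the largest median response in WT, in size, of the 24 lists of pathway genes. Of 28 measured, 16 fell in WT (beside 0.736% of all genes) and 1 in C451A-ERα, the 2′-5′ oligoadenylate synthetase gene Oas1a (beside 1.44%). With the slide as a block 2 of the 16 passed in WT, and Oas1a passed in C451A-ERα. Their median was -1.86 in WT and -0.84 in C451A-ERα. None passed the interaction test, 10 had a higher interaction at an unadjusted p under 0.05 (3.83% of all genes), 27 of 28 lay above 0, and the median interaction was 1.08.

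Oas2, which encodes another of these antiviral enzymes, was at 10.01, 11.02, 11.27 and 12.01 in WT E2 and at 7.33, 7.33, 7.82, 8.00 and 8.67 in WT E2+Pg. In C451A-ERα it was at 9.55, 9.83, 10.11, 10.54 and 11.17 with E2 and at 7.83, 8.32, 8.52, 9.40 and 9.61 with E2+Pg. The fall was 9.49-fold in WT (adjusted p = 0.0024, limma), and C451A-ERα mice were 2.83-fold lower, which did not pass (adjusted p = 0.052, limma). The interaction was 1.74 (0.50 to 2.98), above 0 in all 4 slides. Stat2, which carries the type I interferon signal to DNA, fell 3.35-fold in WT against a difference of -0.73 (interaction 1.01). Oas1a fell 4.39-fold and 3.32-fold, with an interaction of 0.40 (-0.68 to 1.48).

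Averaged over the list and centred on all mice, the level in WT E2 was 1.41, 1.67 and 2.30 in 3 mice and -0.19 in mouse L72. The WT E2+Pg mice lay between -0.71 and 0.01, the C451A E2 mice between -0.48 and 0.58 and the C451A E2+Pg mice between -0.81 and -0.67. The 3 WT E2 mice thus stood above all others, and the 2 E2+Pg groups overlapped. Within C451A-ERα all E2+Pg mice lay below all E2 mice. The median interaction within slides was 1.14, 2.61, -1.44 and 1.43, the negative value on the slide of mouse L72, and the median over all slides ranged from 0.64, without mouse L50 (WT E2), to 1.46, without L72, when mice were left out in turn. The immune marker list, with a median of 0.16 in WT and -0.09 in C451A-ERα, had 0 of 12 members called in either. Over all 20661 genes 274 were called in WT and 509 in C451A-ERα, so 0 of 12 says little. The part of immune cells in the interferon result was not tested.

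The core of the interferon-stimulated response element, GAAA and GAAA with any 2 bases between them, was searched on both strands in the 250 bases before each start site in RefSeq (GRCm38.p6), which held an entry for 20 of the 28 genes. It stood in 10 of the 20, against 3.46% of all 27025 genes with a promoter and 3.15% of the 12362 tested genes with one. Of the 16 list genes called lower in WT, 11 had an entry, and the motif stood before 5 of these. It stood before 0 of the 37 genes with an entry that rose in both genotypes and before 6 of the 38 that fell in both. Among the 17 genes of lowest interaction p with an entry it stood before 0, and the progesterone receptor half-site TGTTCT before 4 (23.5%). The half-site stood before 13.8% of the tested genes with a promoter and 18.2% of all genes with one. No test was made of these counts. The promoters of 3 list genes that fell in WT, picked among those with the motif, are shown with the motif in capitals. They run 5′ to 3′ on the strand of the gene, up to the base before the start site. They lie at chr4:156200819-156201068 (Isg15, minus strand), chr5:120907526-120907775 (Oas1a, minus strand) and chr10:128270248-128270497 (Stat2, plus strand).
Isg15: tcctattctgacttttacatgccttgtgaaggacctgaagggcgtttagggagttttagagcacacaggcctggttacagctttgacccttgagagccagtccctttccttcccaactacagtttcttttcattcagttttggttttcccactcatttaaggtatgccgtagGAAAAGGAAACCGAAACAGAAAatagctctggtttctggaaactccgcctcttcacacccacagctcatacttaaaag
Oas1a: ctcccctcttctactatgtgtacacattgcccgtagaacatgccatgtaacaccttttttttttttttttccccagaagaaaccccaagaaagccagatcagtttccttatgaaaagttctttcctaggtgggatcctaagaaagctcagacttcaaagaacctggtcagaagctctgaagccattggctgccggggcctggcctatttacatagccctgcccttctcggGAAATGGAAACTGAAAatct
Stat2: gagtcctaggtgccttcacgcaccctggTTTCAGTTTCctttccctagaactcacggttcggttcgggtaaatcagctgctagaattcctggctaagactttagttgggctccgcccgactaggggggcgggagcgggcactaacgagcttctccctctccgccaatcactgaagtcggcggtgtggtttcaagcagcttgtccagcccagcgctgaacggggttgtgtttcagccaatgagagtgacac
A match describes the letters in this window and no binding. Isg15, a ubiquitin-like interferon product, carried 3 overlapping copies, Oas1a 2 and Stat2 1, the last on the opposite strand. The interactions of the 3 genes were 1.14, 0.40 and 1.01.

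The cornified and squamous epithelium list had a median of -0.86 in WT, where 2 of 28 fell (0.736% of all genes), and of 0.04 in C451A-ERα. Its median interaction was 0.65, with 8 of 28 higher at an unadjusted p (3.83% of all genes) and all 4 slides above 0 (0.11 to 1.11). Sprr1b, a cornified envelope precursor, passed as a fall in WT, where 4 of 4 E2 arrays and 1 of 5 E2+Pg arrays were well above background, so the size is uncertain. Neither C451A-ERα group was above background on any array, so no response could be measured there. The level of the list in WT E2, 0.39 to 1.07 over the 4 mice, lay above all other mice, which reached at most 0.29. The epidermis markers, most of which are also members of this list, such as Krt1, Krt10, Lor and Flg, had medians of -0.80 and -0.03. The basal markers, which share Krt5, Krt14 and Krt17 with it, had medians of -0.36 and 0.13. Because of the shared members these medians are no separate support, and the part of such cells was not tested. The desmosomal cadherin gene Dsc3 fell 2.08-fold in WT, with an interaction of 1.03.

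Mitosis and DNA replication genes had interactions of the opposite sign. All 36 had an interaction below 0, with a median of -1.44, from a median of 0.35 in WT and -1.16 in C451A-ERα. None was called in either genotype, beside 274 of all 20661 genes in WT and 509 in C451A-ERα, so 0 of 36 says little. A lower interaction at an unadjusted p was found in 4 of 36 (5.55% of all genes). Aurka, the mitotic kinase, had -1.55, the kinesin gene Kif11 -1.37 and the replication helicase gene Mcm6 -1.04. The C451A E2+Pg mice spread from -2.52 to 0.97 on the list's mean level and the C451A E2 mice from -0.90 to 1.30, so the groups overlapped. The slides gave -3.44, 2.21, -0.18 and -2.46, and the median without L18 and L72 was -1.87. These genes rise and fall together in dividing cells, so 36 equal signs are not 36 observations.

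The immediate early, JAK-STAT and shared receptor target lists had interactions above 0 in most members, and their counts stand beside 3.83% of all genes. In each of these lists the median was below 0 on 1 of the 4 slides. Immediate early genes, which answer growth factors and stress within minutes, had a median of -0.53 in WT and 0.12 in C451A-ERα, with 7 of 24 higher at an unadjusted p and 23 of 24 above 0, and the slides ran from -0.22 to 0.85. Klf4 had an interaction of 0.89 and Dusp1, a MAP kinase phosphatase gene, of 0.87. In the JAK-STAT list (25 genes, median interaction 0.46, 5 higher at an unadjusted p), the feedback inhibitor Socs1 fell 2.19-fold in WT (adjusted p = 0.042, limma, and 0.10 with the slide as a block) and differed by -0.02 in C451A-ERα. The cytokine genes Lif and Csf1 had interactions of 2.09 and 1.93 with neither response called. Shared targets of the progesterone and glucocorticoid receptors (20 genes) had a median of -0.40 in WT and 0.23 in C451A-ERα, with 3 higher at an unadjusted p, Nfkbia at 1.17, Dusp1 at 0.87 and Klf9 at 0.60.

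Growth factor lists had smaller median interactions than the lists of the preceding paragraph. The EGF family (14 genes) had a median interaction of 0.27, and Egfr and the ligand gene Hbegf, at 1.63 (0.15 to 3.11), were its 2 members with an unadjusted interaction. The IGF axis (17 genes) had a median of 0.12 with 2 such members, Igf1r and Stc2. These counts stand beside 9.38% of all genes and are too small to tell apart from it. Interactions lay above 0 in 10 of 14 EGF and 12 of 17 IGF members, beside 9266 of all 20661 genes. Wnt (33 genes), Notch (18) and estrogen receptor target (24) lists had medians of -0.02, -0.04 and 0.08. Wnt5a fell and Wnt5b rose in both genotypes, by -1.34 and -1.57 and by 1.13 and 1.59, and the Notch target Heyl rose in both.

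Markers of the luminal hormone-sensing cells had medians of -0.74 in WT, where 0 of 13 were called (0.736% of all genes fell), and -1.05 in C451A-ERα, where 4 fell (1.44%): Pgr, Prom1, Ly6a and Foxa1. The median interaction was -0.45, and -0.34 without L18, L21 and L72. The list's mean level separated mice L72, at 0.98, L21, at 0.22, and L18, at -1.03, from the rest of their groups, at -0.46 to -0.08, -1.05 to -0.67 and -0.35 to 0.35. Luminal progenitor markers had medians of 0.06 and 0.55 and an interaction of 0.44, between 0.41 and 0.54 in every slide, and Sox10 rose in both genotypes.

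**Figure D5:**
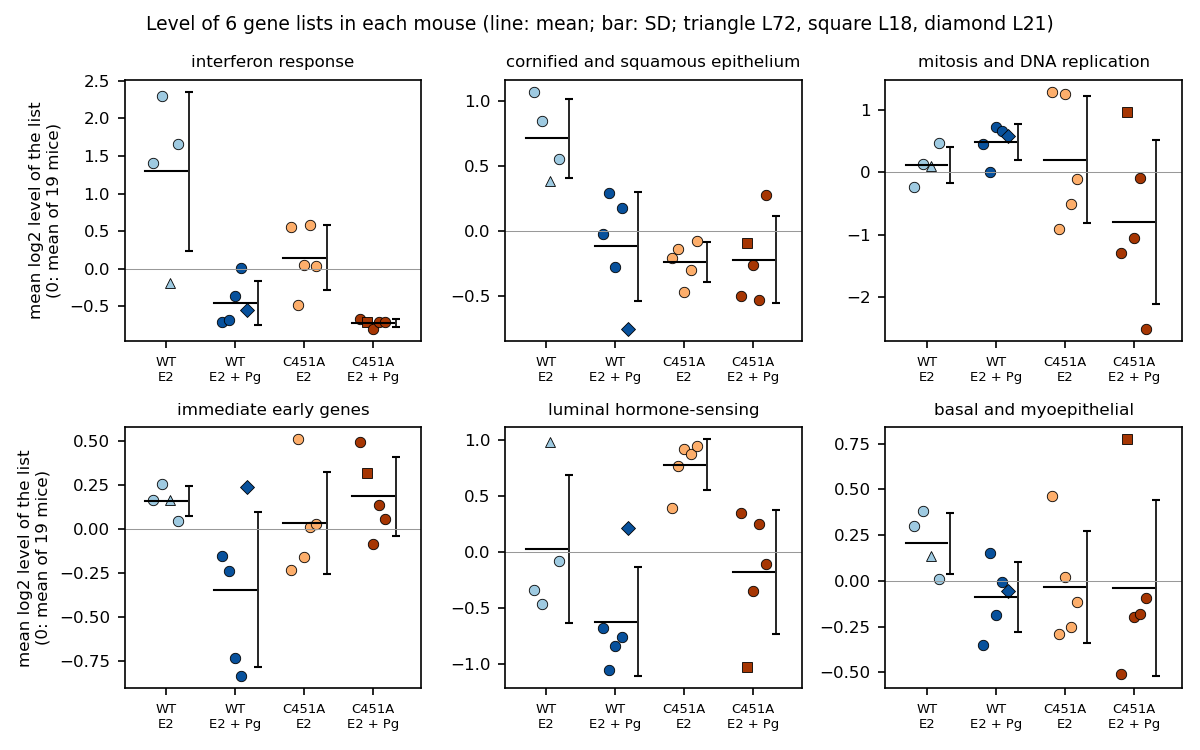
Mean level of 6 gene lists in every mouse (log2, centred on all mice), by group, with mice L72, L18 and L21 drawn as a triangle, a square and a diamond. For the interferon genes 3 WT E2 mice lie at 1.41 to 2.30 above all others, and for mitosis genes the C451A-ERα mice spread from -2.52 to 1.30.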

How the data were processed

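Each of 19 mice gave RNA of sorted LCs for 1 single-colour Agilent array. Group and mouse number came from the sample labels, which give 24 days as the age at ovariectomy and 10 days from there to the pellet. The deposited scanner files hold signal intensity per spot, written for the authors by Agilent Feature Extraction 10.10.1.1. The deposited value table holds log2 values (30207 probes, median 7.77) that, per the methods, the authors filtered, corrected for batch effects and normalized by quantiles. It was used as an alternative.

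The files hold 59305 spots, none saturated, and 1370 outlier spots were left out. Per array, the 75th percentile of the signal lay between 248.5 and 490 and the background between 21 and 29, and the number of arrays limits the precision. Median signals were log2-transformed and then quantile-normalized. Probes well above background on at least 4 arrays were kept, and the brightest probe stood for each gene (7256 of 20661 genes had more than 1). A model with 4 group means was fitted to all arrays with limma 3.58.1 in R 4.3.3 (15 residual degrees of freedom), and the code was tested on simulated data. The threshold for a call was a two-sided adjusted p of 0.05 together with a fold of 1.5. Where no array of a group was above background, the fold is given as a lower bound. Probe positions are those of the files (mm9), and promoters are from RefSeq.

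Genes were named by a fixed rule: the 24 with the lowest p of the interaction at a fold above 1.5, the 6 largest rises and falls called in each genotype without overlap, up to 3 members of each of 24 lists at an unadjusted p under 0.05, and a panel of 19. The members, lists and rule were chosen with earlier results of these data known. The alternatives were another normalization, signal, background correction, filter, probe rule and variance prior, array weights, the slide as a block, the authors' table, each mouse left out, and sets of mice left out. There was 1 marker list for each of 10 cell types, of which fibroblast, endothelial, adipocyte and erythrocyte markers had median interactions of -0.01, -0.28, -0.04 and -1.31. The FGF, TGF-beta, milk protein, cyclin, matrix and protease lists had median interactions of 0.08, 0.16, 0.06, -0.27, 0.20 and 0.16. The integrin, lipid synthesis, unfolded protein, chemokine, hormone receptor and ion channel lists had 0.42, -0.18, 0.03, 0.61, 0.00 and 0.11, and pan-luminal markers 0.18. For the chemokine list 2 of the 4 slides gave a median above 0 and 2 below.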

Additional observations from a re-analysis of the deposited data

Results flagged for a closer look

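A mouse far from the rest of its group was looked for in each group of 4 or 5 mice for each named gene, by its gap to the nearest other mouse as a share of the group's range. Of 408 groups, 18 were flagged (4.41%), and chance flags about 1 in 20. Mouse L18 was flagged in C451A E2+Pg for Adamts18 (0.780), Cdh2 (0.776), Csn2 (0.798) and Fgb (0.762). Mouse L21 was flagged in WT E2+Pg for Adamts18 (0.813), Alox15 (0.725) and Cdh2 (0.832). Mouse L72 was flagged in WT E2 for Greb1 (0.890) and Ltbp1 (0.888). Mouse L4 was flagged in C451A E2 for 1700016D02Rik (0.930), Asic2 (0.750) and Cdh2 (0.717), and mouse L58 there for Ern1 (0.801), Rsph1 (0.734) and Slc44a5 (0.903). The remaining flags were Csf1 in mouse L50 (WT E2, 0.881), Cxcl16 in mouse L62 (0.849) and Socs1 in mouse L47 (0.758), both WT E2+Pg. In Cdh2, Csn2 and Fgb mouse L18 lay away from its group on the side of the WT E2+Pg mice.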

How the results depend on the processing

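No interaction was called under most alternatives. The exceptions were leaving out mouse L72 (24 genes, the highest count when mice were left out in turn, and 0 the lowest), L4, L18 and L21, the lowest 3 by correlation of uncentred levels (2 genes, Cdh2 and Csn2), L18, L21 and L72 (21), L18 and L72 (21) and L4, L18 and L72 (29), whereas without L18 and L21 there were 0. The sets of named mice were chosen after seeing the data. The split of unadjusted interactions moved from 792 higher and 1146 lower to 1032 and 829 with a 75th percentile shift and to 1001 and 825 with the processed signal. The 71 named genes whose interval excluded 0 had the same sign under all alternatives, and of the other 31, 10 changed sign under at least 1. The WT progesterone calls ranged from 28 (without mouse L52) to 577 (without L72) when mice were left out, and were 76 with the slide as a block, 1638 with array weights, 417 without L4, L18 and L21, 593 without L18, L21 and L72, 771 without L18 and L72 and 873 without L4, L18 and L72. The C451A-ERα calls ranged from 200 (without L61) to 973 (without L18), and were 1159 without L18 and L21, 1278 without L18, L21 and L72 and 1017 without L18 and L72. With the slide as a block, 11 of 27 named WT calls were lost, those in the report being 3830417A13Rik, Btbd16, Fgf14, Socs1, Cdh2, Alox12e and Oas1a, and 6 of 32 in C451A-ERα, including Calca, Rspo1 and Pgr. The causes were not tested.

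Without L18, L21 and L72 the median interaction was 0.51 for the EGF family and -0.24 for epidermis markers. Without L18 and L21 it was -0.028 for chemokines and 0.11 for basal markers, and without L4, L18 and L72 -0.075 for D-type cyclins. The pan-luminal median ranged from 0.15 to 0.38 when mice were left out, the highest without L18. The number of arrays limits which interactions were detectable.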
